A study of Mus musculus with 10 samples.

Results

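Complement components and regulators were examined in the testis of mice at postnatal day 10. The genes described in full are 7 of the 30719 genes in the table: the components C3, C4b and Cfb, the soluble regulators Cfi and Serping1, and the membrane regulators Cd55 and Cd46. They were taken by gene name, with earlier results of the same comparison known, so their values are given as a description, with no p-value. Testis RNA of 5 wild-type and 5 FXR-/- mice was sequenced on a single flowcell, each mouse giving a library of its own. FXR-/- mice lack the bile acid receptor FXRα, encoded by Nr1h4. Both groups shared a background mixed from 129sv and C57Bl. Which part of Nr1h4 was removed, and whether mice were littermates, is not given in the labels. The comparison asked which testis transcripts differ without the receptor.

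Complement is a cascade of plasma and tissue proteins that marks cells and particles for removal. The classical, lectin and alternative pathways converge on enzymes, the convertases, that cleave C3, whose larger fragment binds covalently to nearby surfaces and starts the terminal pathway. Host cells hold the cascade back with soluble and membrane regulators that dismantle the convertases or help to cleave the deposited fragments. The liver makes most plasma complement, and fat cells, macrophages, fibroblasts and epithelia make components locally.

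The libraries held 32330029 to 39655170 counts, and values are given as CPM, the counts scaled to a common library size, after trimmed-mean (TMM) correction of the totals. Defining markers of the labelled tissue were present. The summed CPM of 11 Sertoli cell genes was 4193 to 5191 in wild type and 2925 to 4219 in FXR-/- libraries. Of these genes 7 of 11 fell (edgeR adjusted p under 0.05), against 7.71% of all tested genes. The sum of 7 Leydig cell genes was 574 to 842 in wild type and 398 to 706 in FXR-/- libraries. That of 8 germ cell genes was 1175 to 1672 and 1495 to 1909. Nr1h4 held 13 to 26 counts in wild-type and 8 to 13 counts in FXR-/- libraries, and so was near the detection limit in both. In CPM it was at 0.407 to 0.783 in wild type and 0.236 to 0.334 in FXR-/-, without overlap. Markers of duct epithelium and of fat cells were higher on average in FXR-/- libraries, without overlap of the groups for duct epithelium and with overlap for fat cells. The summed level of 13 duct epithelium genes was 112 to 141 CPM in wild type and 182 to 257 CPM in FXR-/-. That of 14 adipocyte genes was 125 to 248 CPM in wild type and 174 to 1153 CPM in FXR-/-, with the highest values in FXR-/- libraries 9 (1153) and 10 (695).

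Serping1 was by far the most abundant member in wild-type testis. Per kilobase of merged exon length, its mean level was 37.6 ± 4.0 CPM per kb (SD, n = 5), and its lowest wild-type library lay above every other member. C3 followed at 3.24 ± 0.749 CPM per kb and Cd55 at 2.44 ± 0.172 CPM per kb, and these levels overlapped between libraries. Cfi (0.685 ± 0.118 CPM per kb) and Cd46 (0.443 ± 0.133 CPM per kb) came next and also overlapped. C4b and Cfb were lowest, at 0.282 ± 0.040 and 0.256 ± 0.0485 CPM per kb, with overlapping libraries (SD, n = 5 each). Between Cd55 and Cfi no wild-type library overlapped. In the wider list, clusterin (Clu), at 712 ± 80.2 CPM per kb, and the thrombomodulin gene Thbd, at 52.6 ± 2.51 CPM per kb (SD, n = 5 each), were more abundant than Serping1.

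All 7 members passed the filter on low counts, and 1 of them, Cfi, met the threshold that defines a changed gene elsewhere in the text, an edgeR adjusted p under 0.05. Across all 18559 tested genes 13.9% met it, 6.17% as higher and 7.71% as lower in FXR-/-. The groups did not overlap in 1 of 7 members, against 11.6% of tested genes (5.12% with FXR-/- higher and 6.44% with it lower). The fitted log2 fold change of FXR-/- over wild type was above 0 in all 7 members and in 9884 of all 18559 tested genes. Its median was 0.30 in the members and 0.01 over all tested genes. The libraries of the groups overlapped in all members except Cfi. Nothing is read from these member counts or this median, since the members were proposed from this contrast.

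**Figure D1:**
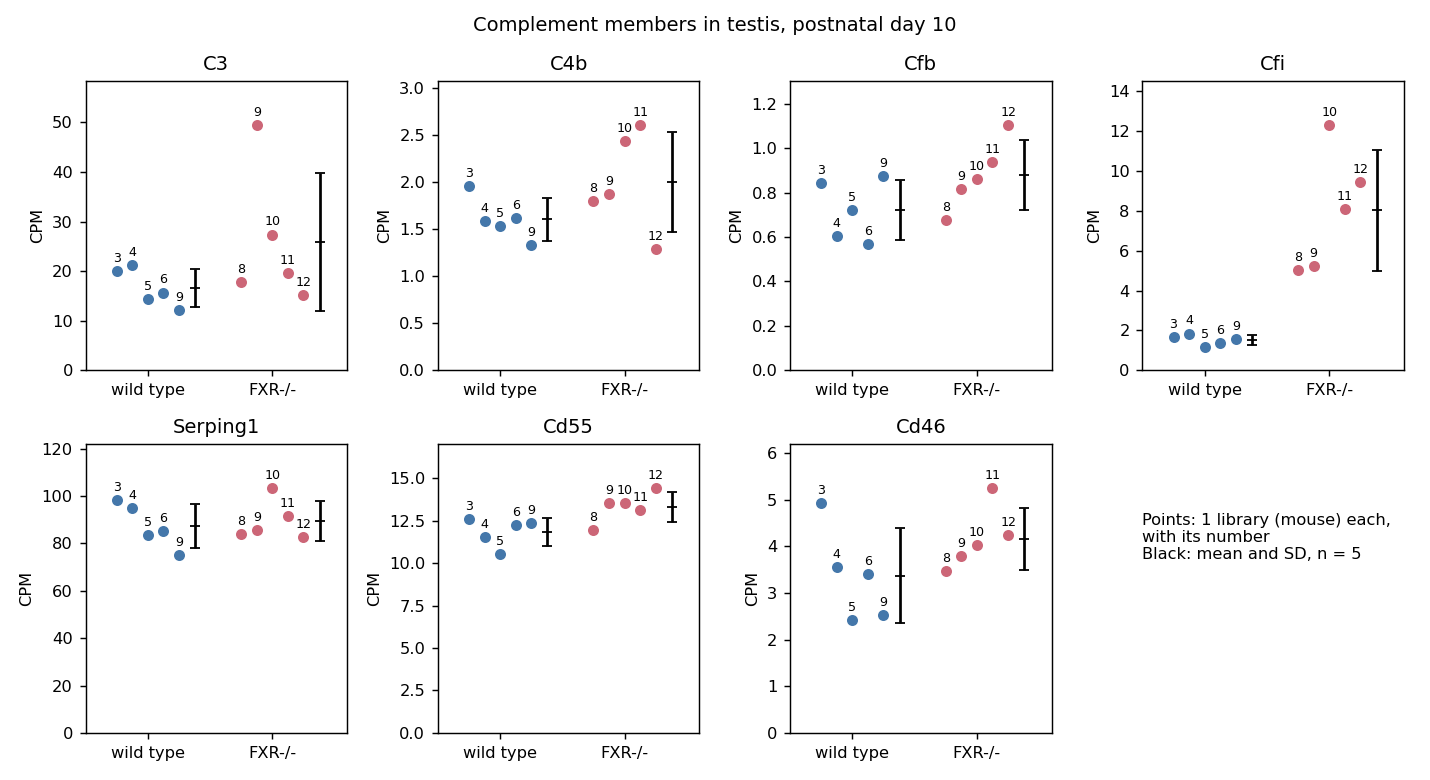
CPM of each of the 7 complement members (y axes, each from 0) in the 5 wild-type and 5 FXR-/- libraries; points are libraries with their numbers, and the black bar is the mean with its SD (n = 5). Only the Cfi panel has no overlap, with wild type at 1.16 to 1.84 CPM and FXR-/- at 5.04 to 12.3 CPM.

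Cfi was the member with the largest difference. It encodes factor I, the serine protease that inactivates C3b and C4b once a cofactor is bound, and lies on chromosome 3 (ENSMUSG00000058952, GRCm38, 129835884 to 129875332, plus strand). Wild-type libraries 3, 4, 5, 6 and 9 had 1.66, 1.84, 1.16, 1.38 and 1.57 CPM. FXR-/- libraries 8 to 12 had 5.04, 5.22, 12.3, 8.07 and 9.45 CPM. Every FXR-/- library was above every wild-type library, and FXR-/- libraries 8 and 9 were the low ones of their group. The means were 1.52 ± 0.262 and 8.02 ± 3.05 CPM (SD, n = 5 each), a 5.26-fold difference (log2 fold change 2.40, SE 0.254). In bulk tissue, a change in the number of cells of a type and a change of RNA per cell cannot be told apart. None of the 2171 stretches of 50 bases in the annotated Cfi transcripts occurred in a transcript of another gene. FXR-/- library 9, with the highest adipocyte sum, had the second lowest Cfi level of its group. Library 10, next in adipocyte sum, had the highest. After the genotype means were subtracted, log2 CPM of Cfi correlated with the adipocyte mean at 0.15 over the 10 libraries. With the macrophage mean it correlated at 0.72 and with the duct epithelium mean at 0.52. With the adipocyte mean of each library added to the model the log2 fold change was 2.23, and with the duct epithelium mean, whose libraries do not overlap between genotypes, it was 1.37.

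C3, the central component, was high in a pair of FXR-/- libraries. It lies on chromosome 17 (ENSMUSG00000024164, 57203970 to 57228136, minus strand). Wild-type libraries 3, 4, 5, 6 and 9 had 20.0, 21.2, 14.4, 15.7 and 12.1 CPM. FXR-/- libraries 8 to 12 had 17.9, 49.5, 27.4, 19.7 and 15.2 CPM. Libraries 9 and 10 lay above all wild-type values and the other FXR-/- libraries lay within the wild-type range. The means were 16.7 ± 3.85 and 25.9 ± 13.9 CPM (SD, n = 5 each; log2 fold change 0.64, SE 0.292). Libraries 9 and 10 are also those with the most adipocyte RNA by the marker sum. Without both of them the log2 fold change was 0.076, without library 9 alone it was 0.27, and with the adipocyte value as a covariate it was -0.28. Libraries 9 and 10 hold the highest C3 values, so leaving them out lowers the difference whatever its source, which was not tested. After the genotype means were subtracted, log2 CPM of C3 correlated with the adipocyte mean at 0.83 and with the endothelial mean at 0.89 over the 10 libraries, which share depth and scaling with the markers.

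**Figure D2:**
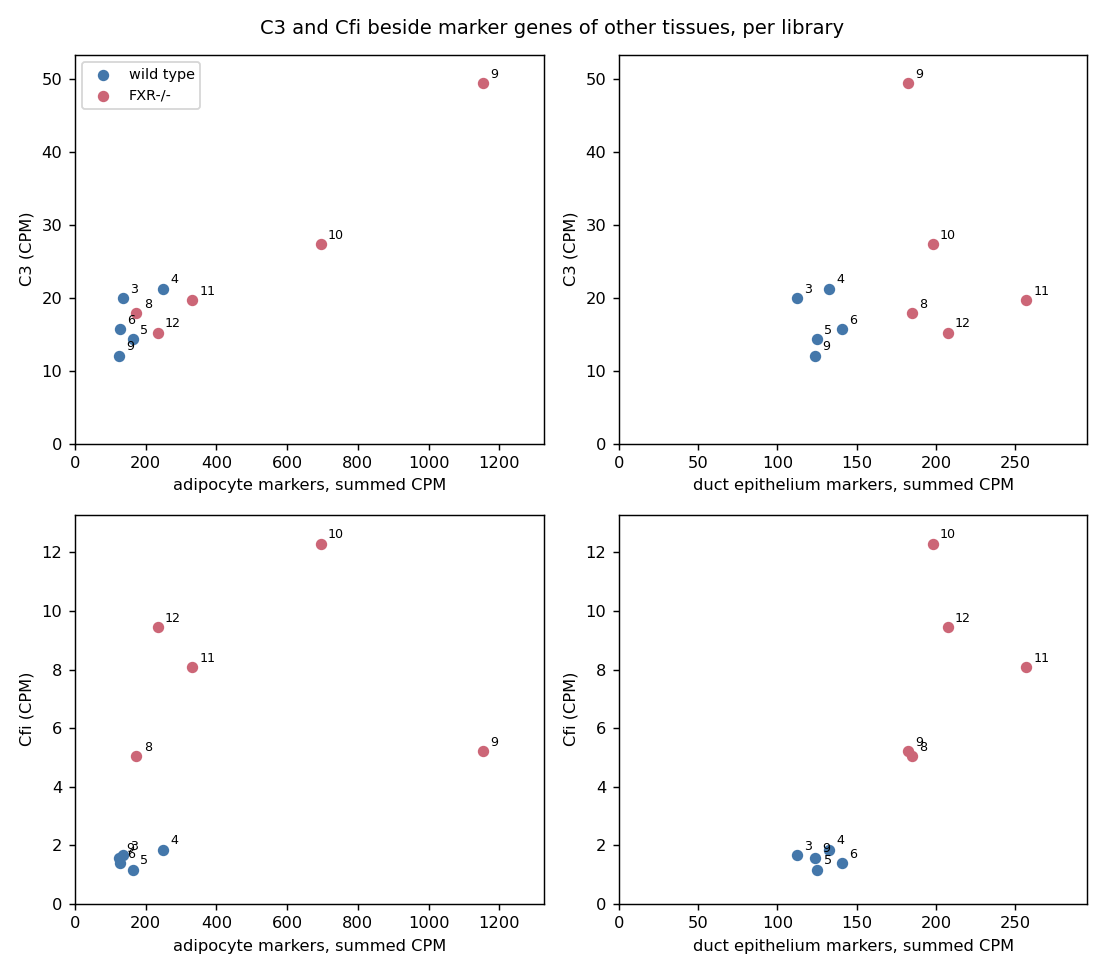
C3 (top) and Cfi (bottom), in CPM, against the summed CPM of 14 adipocyte markers (left) and 13 duct epithelium markers (right); each point is a library with its number. C3 is highest in FXR-/- libraries 9 and 10, which have the highest adipocyte sums. Cfi does not overlap between the genotypes. For Cfi, FXR-/- library 9 (5.22 CPM) is among the lower FXR-/- values and library 10 (12.3 CPM) is the highest.

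The 250 bases before the RefSeq start site of C3 are shown because FXR binds as a dimer to repeats of a short nuclear receptor half-site. The window is chr17:57228137-57228386 (GRCm38.p6, minus strand), written 5′ to 3′, with the letters AGGTCA in capitals.
C3 promoter: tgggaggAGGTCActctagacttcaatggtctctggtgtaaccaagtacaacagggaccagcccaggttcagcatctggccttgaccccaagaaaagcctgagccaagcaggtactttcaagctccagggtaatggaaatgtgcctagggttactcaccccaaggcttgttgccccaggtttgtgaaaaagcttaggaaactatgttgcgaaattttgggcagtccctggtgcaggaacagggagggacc
The half-site AGGTCA, searched on both strands, occurred in 16.3% of 32851 RefSeq promoter windows of 300 bases, so its presence in C3 is common. The best-known FXR element, an inverted repeat in which GGTCA is followed after 1 base by TGACC, occurred in 0.0396% of windows (13 of 32851) and in none of 49 windows of complement genes. RefSeq windows were matched for 3 of the 7 members, C3, Cd55 and Cd46, and not for Cfi, C4b, Cfb and Serping1.

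C4b was measured beside a near-identical copy. It encodes the fourth component, which forms the classical and lectin convertase with C2, and lies on chromosome 17 (ENSMUSG00000073418, 34728380 to 34743882, minus strand). C4a, the copy that is also known as the sex-limited protein gene, starts 80.7 kb away on the same strand (ENSMUSG00000015451, 34809092 to 34823464). Over 5207 aligned bases the C4b coding sequence and the longest C4a transcript were 96.1% identical, with an identical run of 433 bases. Of the 50-base stretches of C4b transcripts, 34.6% occurred in C4a, so some reads cannot be assigned and both values are uncertain. The 60-base window with the most differences (13) shows where reads can separate the copies, with differing bases in capitals. In C4b it is chr17:34735430-34735489, in C4a chr17:34816086-34816145, both in exon 21 of the GENCODE M21 transcripts and written 5′ to 3′ along the minus strand.
C4b: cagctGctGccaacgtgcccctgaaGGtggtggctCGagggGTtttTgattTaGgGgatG
C4a: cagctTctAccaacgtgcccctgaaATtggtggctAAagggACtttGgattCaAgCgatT

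The C4b level was 1.96, 1.58, 1.54, 1.62 and 1.33 CPM in wild-type libraries 3, 4, 5, 6 and 9. FXR-/- libraries 8 to 12 had 1.80, 1.88, 2.43, 2.60 and 1.28 CPM. The groups overlapped, and FXR-/- library 12 was the lowest of all 10 libraries. The means were 1.6 ± 0.228 and 2.0 ± 0.528 CPM (SD, n = 5 each; log2 fold change 0.32, SE 0.189), and with the duct covariate the value was -0.47.

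C4a, which is not among the members, rose. Wild-type libraries had 3.52, 3.08, 2.88, 3.83 and 4.13 CPM in the same order, and FXR-/- libraries had 5.16, 5.55, 5.24, 5.47 and 6.65 CPM. All FXR-/- libraries lay above all wild-type libraries, and library 12, lowest in C4b, was the highest in C4a. The log2 fold change was 0.69 (SE 0.119, edgeR quasi-likelihood test, adjusted p = 0.00418). The call held in 17 of 18 alternatives and was lost with the duct covariate, where the log2 fold change was 0.74 (adjusted p = 0.685). The duct covariate separates the genotypes, and with it 33 of all tested genes passed, against 2576 without it. A call lost or a fold change shifted with the duct covariate, for C4b above and for genes below, is therefore not read as particular to a gene. The sum of both copies does not depend on how the counted reads were split between them. It was 5.09 ± 0.510 CPM in wild type (4.42 to 5.48) and 7.61 ± 0.444 CPM in FXR-/- (6.95 to 8.07; SD, n = 5 each). C4b made up 24.3% to 35.7% of the counts of the pair in wild type and 16.2% to 32.3% in FXR-/- libraries.

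**Figure D3:**
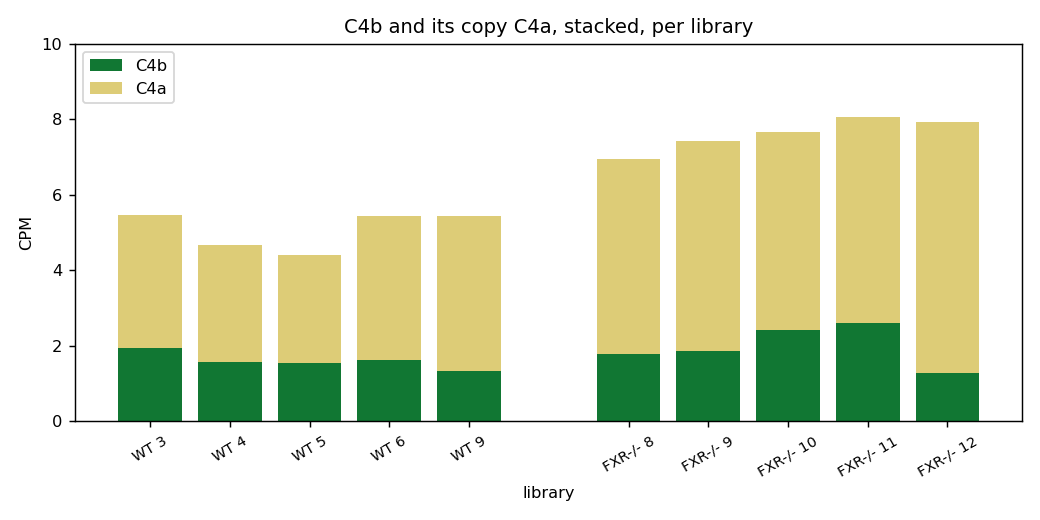
Stacked CPM of C4b (bottom) and its copy C4a (top) in each library, with wild type on the left and FXR-/- on the right. The summed bars run from 4.42 to 5.48 CPM in wild type and from 6.95 to 8.07 CPM in FXR-/-, and the C4b share is smallest in FXR-/- library 12 (16.2%).

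Cfb was the least abundant member. It encodes factor B, the protease subunit of the alternative pathway convertase, and lies in the same gene cluster (ENSMUSG00000090231, chromosome 17, 34856374 to 34862518, minus strand). Its 10 libraries held 286 counts in all. Cfb in wild-type libraries 3, 4, 5, 6 and 9 was at 0.843, 0.604, 0.721, 0.568 and 0.874 CPM, and FXR-/- libraries 8 to 12 had 0.678, 0.816, 0.860, 0.937 and 1.1 CPM. The groups overlapped, with FXR-/- libraries 11 and 12 above the wild-type range. The means were 0.722 ± 0.137 and 0.879 ± 0.157 CPM (SD, n = 5 each; log2 fold change 0.29, SE 0.180). Gm20547, a gene model that spans Cfb and C2, contains 73.0% of the 50-base stretches of Cfb and held 2 counts in all libraries. How reads that fall in both models were counted is not given in the sources used here, so the absolute level of Cfb is uncertain. C2, which encodes the protease subunit of the classical convertase and shares 38.7% of its stretches with Gm20547, stood at 17.8 ± 1.53 (wild type) and 18.6 ± 2.96 CPM (FXR-/-) (SD, n = 5 each; edgeR adjusted p = 0.707).

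Serping1 showed almost the same level in both genotypes. It encodes C1 inhibitor, the serpin that inactivates the proteases C1r, C1s and MASP (ENSMUSG00000023224, chromosome 2, 84765387 to 84775444, minus strand). Serping1 in wild-type libraries 3, 4, 5, 6 and 9 was at 98.4, 94.9, 83.6, 85.3 and 75.2 CPM, and FXR-/- libraries 8 to 12 had 83.8, 85.7, 103.4, 91.7 and 82.8 CPM. All except FXR-/- library 10 lay within the wild-type range. The means were 87.5 ± 9.29 and 89.5 ± 8.54 CPM (SD, n = 5 each; log2 fold change 0.03, SE 0.0803). The sign of this difference was below 0 in 6 of 18 alternatives. Within genotypes, log2 CPM of Serping1 correlated at 0.84 with the mesothelial and at -0.86 with the germ cell mean over the 10 libraries. In this measure wild-type library 3, with the lowest germ cell sum (1175 CPM), had the second highest Serping1 value.

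Cd55, the membrane regulator also known as decay-accelerating factor, had a narrow spread. It lies on chromosome 1 (ENSMUSG00000026399, 130439027 to 130462744, minus strand). Levels in wild-type libraries 3, 4, 5, 6 and 9 were 12.6, 11.5, 10.5, 12.2 and 12.4 CPM, and FXR-/- libraries 8 to 12 had 11.9, 13.5, 13.5, 13.1 and 14.4 CPM. FXR-/- library 8 lay inside the wild-type range and the other 4 lay above it. The means were 11.8 ± 0.833 and 13.3 ± 0.907 CPM (SD, n = 5 each; log2 fold change 0.17, SE 0.0731), and the difference stayed above 0 in all 18 alternatives (0.08 to 0.20). The neighbouring copy Cd55b, known from mouse testis and listed in the table as Daf2, had 0.0415 ± 0.0328 (wild type) and 0.0529 ± 0.0435 CPM (FXR-/-) (SD, n = 5 each) and did not pass the filter. Its coding sequence is 93.9% identical to that of Cd55 over 1083 aligned bases.

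Cd46 encodes membrane cofactor protein, the cofactor with which factor I cleaves C3b and C4b, and in mice it is known mainly from the acrosome of sperm. It lies on chromosome 1 (ENSMUSG00000016493, 195036826 to 195092249, minus strand). Wild-type libraries 3, 4, 5, 6 and 9 had 4.94, 3.57, 2.41, 3.41 and 2.53 CPM, and FXR-/- libraries 8 to 12 had 3.48, 3.81, 4.02, 5.26 and 4.24 CPM. Wild-type library 3 lay above 4 of the FXR-/- libraries. The means were 3.37 ± 1.01 and 4.16 ± 0.675 CPM (SD, n = 5 each; log2 fold change 0.30, SE 0.190). With the duct covariate, which separates the genotypes, the value was -0.62, and its sign is not read. The opposite-strand gene A330023F24Rik holds 13.5% of the 50-base stretches of Cd46, and without strand such reads cannot be told apart. Acrosome and spermatid genes were low at this age, with 8.25 to 10.0 CPM in wild type and 10.8 to 11.8 CPM in FXR-/- libraries as the sum of 8 genes. Within genotypes, log2 CPM of Cd46 correlated at -0.58 with their mean and at 0.65 with the duct epithelium mean over the 10 libraries. The part of acrosome and spermatid genes in the Cd46 values was not tested.

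In the wider cascade C4a and Cfd rose and Hc, Clu and Thbd fell. Of 55 other complement genes, 54 had a row, 41 passed the filter and 5 changed, with 2 higher and 3 lower (edgeR quasi-likelihood test, Benjamini-Hochberg adjusted p under 0.05). This is 12.2% of the tested genes of the list, close to the 13.9% of all tested genes, and 15 had an unadjusted p under 0.05, as had 5562 of all 18559 tested genes. The median log2 fold change was 0.07. Since earlier results of these data were known when the list was chosen, its counts are no independent support. The counts by role below stand beside the same 13.9%. With 4 to 12 tested genes per role, nothing is read from them.

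**Figure D4:**
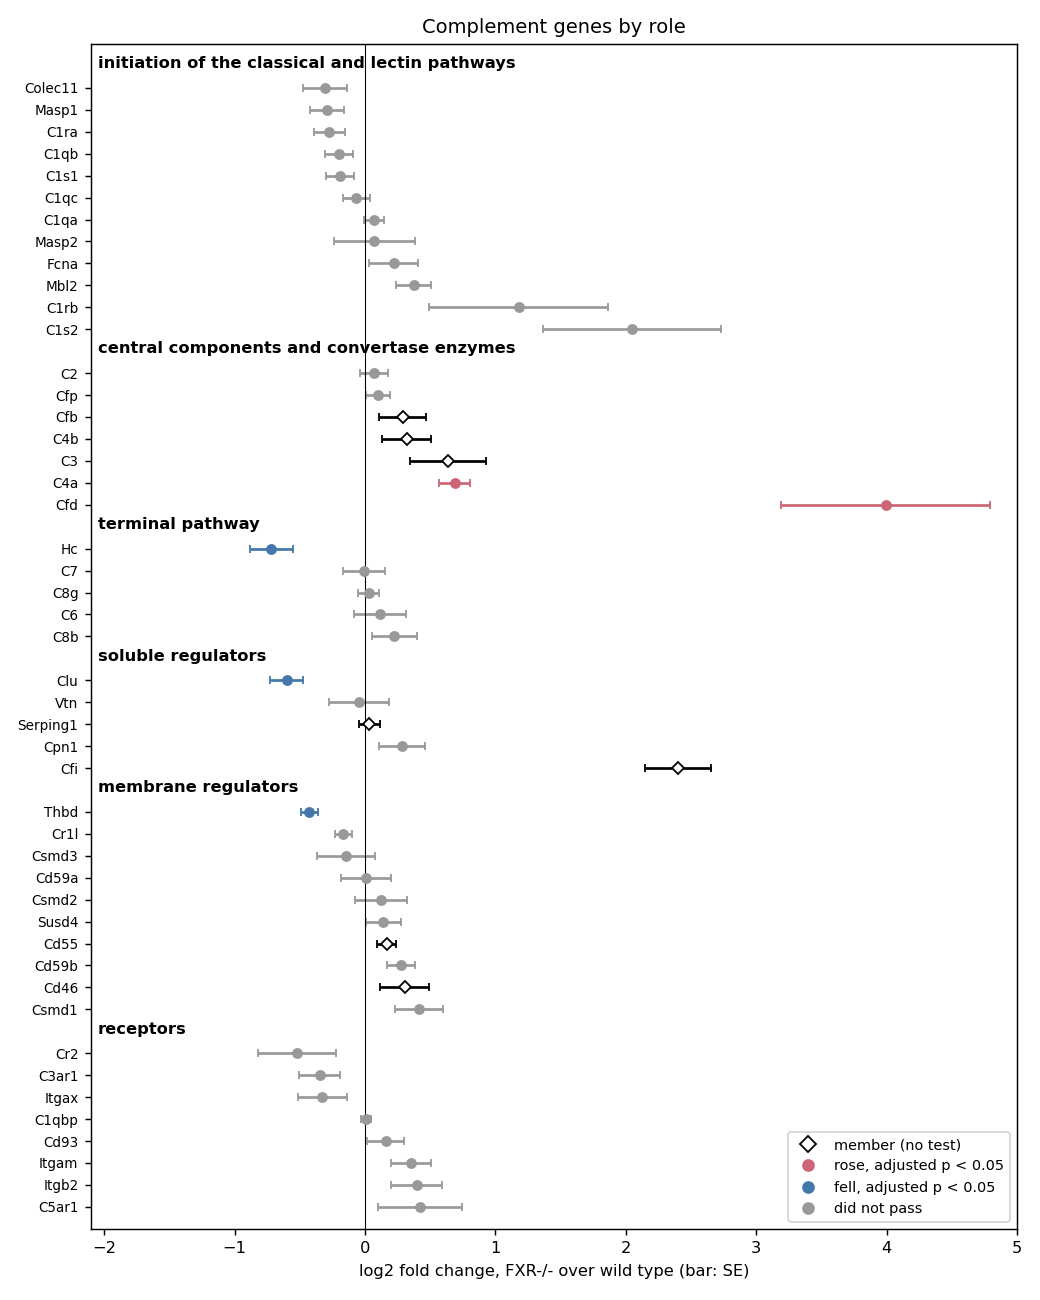
Fitted log2 fold change of FXR-/- over wild type (x axis) with its SE for the tested complement genes reported here, grouped by role; diamonds are the 7 members and filled points the other genes, coloured by the edgeR call. C4a (0.69) and Cfd (3.99) rose, Hc (-0.72), Clu (-0.60) and Thbd (-0.43) fell, and Cfi is the member farthest from 0.

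Among genes that start the classical and lectin pathways, 0 of 12 tested passed by edgeR, and by DESeq2 C1s2 passed. An unadjusted edgeR p under 0.05 was found in 4 of the 12, and in 5562 of all 18559 tested genes. C1qb, C1ra and Masp1 passed with the macrophage mean as a covariate, and C1ra and C1s2 passed without FXR-/- library 10. Over all genes 3483 passed by DESeq2, 3367 with the macrophage covariate and 2867 without library 10, against 2576 by edgeR with all libraries. The C1q chains, which recognise antibody and are made by macrophages, did not pass: C1qa was at 10.3 ± 0.278 and 10.8 ± 1.12 CPM, C1qb at 12.1 ± 0.853 and 10.5 ± 1.77 CPM, and C1qc at 11.4 ± 1.11 and 10.9 ± 1.52 CPM in wild type and FXR-/- (SD, n = 5 each). In C1qb 3 of 5 FXR-/- libraries lay below the wild-type range. The proteases that C1 inhibitor targets were abundant. C1s1 stood at 97.9 ± 11.1 and 85.7 ± 13.4 CPM and C1ra at 37.3 ± 5.32 and 30.9 ± 5.09 CPM (SD, n = 5 each), and neither passed by edgeR (adjusted p = 0.256 and 0.140). Both have a copy in the genome with which C1ra shares 48.0% and C1s1 21.8% of its 50-base stretches, so these values are uncertain.

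Of the 4 other central genes, C4a and Cfd rose and C2 and Cfp did not pass. Cfd encodes factor D, or adipsin, the protease that cleaves factor B and an abundant product of fat cells. Cfd lies on chromosome 10 (79890853 to 79892655), the chromosome that also holds Nr1h4 (89454234 to 89533585). Wild-type libraries 3, 4, 5, 6 and 9 had 0.843, 4.14, 2.54, 0.239 and 0.211 CPM, and FXR-/- libraries 8 to 12 had 6.16, 54.6, 43.6, 15.5 and 7.81 CPM. The groups did not overlap, and within FXR-/- the values followed the order of the adipocyte marker sum. The log2 fold change was 3.99 (SE 0.801, edgeR adjusted p = 0.00817). With the adipocyte covariate it was 1.52 and still passed, and with the duct covariate it was 3.78 and the call was lost (adjusted p = 0.732). Without wild-type library 4 it was 4.75, and without FXR-/- libraries 9 and 10 it was 2.61, and both passed. Cfp, which encodes properdin, the stabiliser of the alternative convertase, was at 19.2 ± 2.67 and 20.6 ± 1.44 CPM (SD, n = 5 each; edgeR adjusted p = 0.508).

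In the terminal pathway, which builds the membrane attack complex, 1 of 5 tested genes fell and 4 did not pass. Hc, the gene of component C5, went from 1.13 ± 0.114 (wild type) to 0.689 ± 0.133 CPM (FXR-/-) (SD, n = 5 each; log2 fold change -0.72, SE 0.162, edgeR adjusted p = 0.0143). Its libraries did not overlap in CPM, but they held few counts, 33 to 43 in wild type and 19 to 33 in FXR-/-. The call was lost with the adipocyte covariate (log2 fold change -0.60, adjusted p = 0.141) and the duct covariate (log2 fold change -0.48, adjusted p = 0.836). C7 and C8g were detected without a difference past the threshold, while C8a and C9 did not pass the filter.

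Of 4 other soluble regulators tested, Clu fell and 3 did not pass, Vtn and Cpn1 among them. Clu, a Sertoli cell product that also blocks assembly of the terminal complex, fell from 2445 ± 276 to 1613 ± 305 CPM (SD, n = 5 each; log2 fold change -0.60, SE 0.128, edgeR adjusted p = 0.0108). With the duct covariate the log2 fold change was -0.84 and the call was lost (adjusted p = 0.674). In the Sertoli cell marker list, which holds Clu, 7 of 11 genes fell, Clu among them, and Cst9 rose. Of all tested genes 7.71% were lower and 6.17% higher by the same threshold.

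Among 8 other membrane regulators tested, Thbd fell and 7 did not pass. Thbd, which encodes thrombomodulin, a cofactor of both the protein C and the complement regulatory systems, fell from 196 ± 9.33 to 146 ± 14.4 CPM (SD, n = 5 each; log2 fold change -0.43, SE 0.0636, edgeR adjusted p = 0.00169). Its libraries did not overlap, and the call was lost in 1 of 18 alternatives, the duct covariate, where the log2 fold change was -0.41 (adjusted p = 0.674). Cr1l, or Crry, the rodent regulator that overlaps in function with Cd55 and Cd46, was at 31.0 ± 2.82 and 27.6 ± 1.26 CPM (SD, n = 5 each; log2 fold change -0.17, SE 0.0647, edgeR adjusted p = 0.105). Cd59b, which blocks the membrane attack complex, was at 3.63 ± 0.418 and 4.40 ± 0.323 CPM without overlap (SD, n = 5 each), and did not pass (edgeR adjusted p = 0.10).

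Complement receptors gave 0 of 8 calls by edgeR and 0 by DESeq2. By edgeR 2 of 8 had an unadjusted p under 0.05, as had 5562 of all 18559 tested genes. Without FXR-/- library 10, C3ar1 passed by edgeR, and 4 of its 5 FXR-/- libraries lay below the wild-type range. Over all genes 2867 passed without library 10, against 2576 with it. The anaphylatoxin receptor gene C3ar1 was at 3.78 ± 0.492 and 2.96 ± 0.707 CPM, and the integrin chain genes Itgam and Itgb2 of complement receptor 3 were at 2.20 ± 0.353 and 2.80 ± 0.521 CPM and at 1.70 ± 0.282 and 2.24 ± 0.647 CPM in wild type and FXR-/- (SD, n = 5 each). Itgam shares 66.3% of its 50-base stretches with the gene model Gm49368, so its level is uncertain. The summed level of 15 macrophage markers ranged from 166 to 182 CPM in wild type and from 143 to 204 CPM in FXR-/- libraries. Of 14 tested macrophage markers, Ctss and Ms4a7 rose and 12 did not pass. That is 14.3% called, close to the 13.9% of all tested genes, and the median log2 fold change of the list was -0.006.

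Markers of other cells that make complement were counted beside these genes. Of 13 duct epithelium genes 10 rose, and of 14 adipocyte genes 9 rose, against 13.9% of all tested genes in either direction. Of 10 fibroblast genes 3 rose (Lum, Dpt and Mfap5), of 10 mesothelial genes Krt19 rose and Wt1 fell, and of 10 endothelial genes Erg rose. Krt19 is also in the duct epithelium list and Wt1 also in the Sertoli cell list, so both are counted there as well. Hepatocyte genes were near absent, with 6.86 to 12.9 CPM in wild type and 8.15 to 11.0 CPM in FXR-/- as the sum of 10 genes, and 0 of the 4 tested passed by edgeR. The part of these cell types in the complement values was not tested beyond the covariate values given.

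Interferon induces C4b, Cfb and Serping1 in many cells, and its response genes were therefore counted. Of 28 tested, 1 rose, 1 fell and 26 did not pass by edgeR. That is 7.14% called, against 13.9% of all tested genes. An unadjusted edgeR p under 0.05 was found in 6 of the 28, and in 5562 of all 18559 tested genes. The gene that rose was Bst2, which encodes tetherin (log2 fold change 0.37, SE 0.0676, edgeR adjusted p = 0.00514). The median log2 fold change was 0.04. Irf1, a direct target of interferon gamma, was at 41.7 ± 2.09 and 48.8 ± 7.39 CPM and Psmb9 at 2.13 ± 0.346 and 2.92 ± 0.538 CPM in wild type and FXR-/- (SD, n = 5 each), and neither passed (edgeR adjusted p = 0.110 and 0.0707).

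The genes next to the members gave 5 calls among 63, or 7.94%, against 13.9% of all tested genes. They were the nearest 5 tested genes on each side of a member (7 genes in all for Cd46), with shared ones counted once. On chromosome 3, Pla2g12a and Casp6, the nearest tested genes after Cfi, fell while Cfi was higher. Pla2g12a, a secreted phospholipase gene that starts 42.7 kb from Cfi, was at 21.9 ± 1.30 CPM in wild-type libraries and 16.3 ± 0.674 CPM in FXR-/- (SD, n = 5 each; log2 fold change -0.43, edgeR adjusted p = 0.00096). Casp6, the caspase 6 gene at 65.5 kb, was at 44.8 ± 3.13 CPM in wild-type libraries (SD, n = 5) and had a log2 fold change of -0.58 (SE 0.0755, edgeR adjusted p = 0.000705). Neither gene overlapped between the groups. In the cluster with C4b and Cfb, C4a and Slc44a4 rose. Slc44a4, a choline transporter-like gene of epithelia, was at 1.37 ± 0.196 in wild type and 2.61 ± 0.378 in FXR-/- (CPM, SD, n = 5 each; edgeR adjusted p = 0.00199). The 4 tested genes that lie between C4a and Cfb had log2 fold changes of -0.02 to 0.05 and did not pass. Beside Serping1, Ube2l6 fell (16.8 ± 0.515 in wild type, 13.7 ± 1.73 in FXR-/-, CPM with SD, n = 5 each; edgeR adjusted p = 0.0383), a call lost without any 1 of 8 libraries (adjusted p up to 0.0974). With library totals alone 10 neighbours passed, of which 8 were higher and 2 lower, against 2 higher and 3 lower with trimmed-mean scaling. Without FXR-/- library 8 there were 9 calls, 7 higher and 2 lower. Over all genes 2704 passed with library totals alone and 2481 without FXR-/- library 8, against 2576 with trimmed-mean scaling and all libraries.

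The members did not follow one another closely within genotypes. After subtraction of genotype means, the correlation of log2 CPM between members over the 10 libraries, which share depth and scaling, ran from -0.30 (C3 with Cfb) to 0.74 (C4b with Serping1). Over the 13906 genes compared, the patterns most like Cfi were those of Commd3, Tradd and Sybu (0.96, 0.95 and 0.95). Those most like C3 were Ppp2r5a, Slc1a5 and Cav1 (0.98, 0.98 and 0.97), those most like C4b included Cd47 and C1galt1c1 (0.95 and 0.93), and those most like Cfb Dpm1, Secisbp2 and Vps41 (0.96, 0.95 and 0.95). For Serping1 they were Rab13, Lmbrd1 and Sparcl1 (0.96 each), for Cd55 Ino80b, Omd and Slc8a3 (0.97, 0.91 and 0.91), and for Cd46 Col20a1, Lin7a and Gprc5c (0.94, 0.93 and 0.92). These are the highest of 13906 correlations over 10 libraries, and nothing is read from them.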

How the data were processed

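RNA of whole testes at postnatal day 10 was measured in 10 mice. The deposited table holds raw read counts per gene, as made by the authors, and per the file headers also normalized values, not used here. Per the submitters' processing notes, FastQC 0.10.1, CASAVA, Bowtie, TopHat2 2.0.10, Bowtie2 2.1.0 and the build mm10 are named, without their roles. For the read counter, its annotation, and its treatment of strand and of reads shared by genes, the entry is: not given in the sources used here. About 0.2% of counts were in genes without a GENCODE match. Positions, exon lengths and transcripts come from GENCODE M21 (GRCm38, the same build; 30212 of 30719 genes matched) and promoters from RefSeq (GRCm38.p6). No column belonged to other samples. Totals were 32330029 to 39655170 counts.

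Low counts were removed by filterByExpr, libraries were scaled by TMM (factors 0.981 to 1.03), and genes were tested with edgeR 4.0.16 in R 4.3.3 (quasi-likelihood F-test, genotype as the only term, Benjamini-Hochberg over 18559 genes). The SE of a log2 fold change is its size divided by the square root of F. DESeq2 1.42.0 served as an alternative. The script was tested on simulated counts. Log2 CPM used a prior count of 2. The members and lists were chosen with earlier results of these data known. Named genes were the members, the genes of the complement, interferon and 11 marker lists, changed genes among the 5 nearest tested genes per side, and the 3 genes most like each member. Some items of the lists are not reported here.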

Additional observations from a re-analysis of the deposited data

Results flagged for a closer look

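Among 48 complement genes tested in 2 groups of 5 libraries (96 groups), 11 values stood far from the other 4 of their group by Dixon's criterion (a gap over 0.71 of the range). Chance flags about 1 in 20 groups. None of the 11 belonged to the 7 members.

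Wild-type library 3 stood apart in C1rb at 0.662 CPM (above the other 4 at 0.241 to 0.359 CPM), Mbl2 at 0.692 CPM (below the other 4 at 0.718 to 0.723 CPM), Colec11 at 4.55 CPM (above the other 4 at 2.8 to 3.04 CPM) and C7 at 6.26 CPM (above the other 4 at 3.55 to 4.06 CPM). Wild-type library 4 stood apart in Masp2 at 0.547 CPM (below the other 4 at 2.48 to 3.04 CPM). FXR-/- library 12 stood apart in C4a at 6.65 CPM (above the other 4 at 5.16 to 5.55 CPM) and Cpn1 at 0.694 CPM (below the other 4 at 0.963 to 1.01 CPM). FXR-/- library 8 stood apart in Clu at 1091 CPM (below the other 4 at 1634 to 1843 CPM). FXR-/- library 10 stood apart in Cr1l at 29.8 CPM (above the other 4 at 26.7 to 27.3 CPM). Wild-type library 6 stood apart in Csmd1 at 0.838 CPM (above the other 4 at 0.512 to 0.576 CPM). Wild-type library 5 stood apart in C1qbp at 71.3 CPM (below the other 4 at 75.3 to 76.6 CPM).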

How the results depend on the processing

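The counts of changed complement, interferon-response and neighbouring genes, and the log2 fold changes of the members and of the changed genes of those lists, were recomputed in 18 alternatives: upper-quartile factors, library totals alone, DESeq2, no filter on low counts, each library left out, FXR-/- libraries 9 and 10 left out together, and adipocyte, duct epithelium or macrophage marker means as a covariate. The duct covariate separates the genotypes, and with it 33 of all genes passed. The log2 fold changes fitted with it, and their signs, are therefore not read as adjusted effects. No paired analysis was possible because the groups share 1 replicate number.

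The count of changed complement genes outside the members, 5 with trimmed-mean scaling, was 0 with the duct covariate, 8 with the macrophage covariate and 5 to 8 without single libraries (8 without FXR-/- library 10). That of interferon-response genes, 2, was 4 with DESeq2, 0 with the duct covariate and 5 with the macrophage covariate, and 2 to 3 without single libraries. That of neighbouring genes, 5, was 9 with DESeq2, 0 with the duct covariate, 10 with library totals alone and 4 to 9 without single libraries (9 without FXR-/- library 8). Calls over all genes moved too, with 2576 under trimmed-mean scaling, 3483 by DESeq2 and 3367 with the macrophage covariate. They numbered 2704 with library totals alone, 2867 without FXR-/- library 10 and 2481 without FXR-/- library 8. With the duct covariate the log2 fold change was -0.47 for C4b, -0.30 for Serping1, -0.62 for Cd46 and 1.37 for Cfi. For C3 it was -0.28 with the adipocyte covariate and 0.076 without FXR-/- libraries 9 and 10. The cause of these shifts was not tested. Without single libraries the log2 fold change ran from 0.27 to 0.78 in C3, 0.21 to 0.44 in C4b, 0.19 to 0.36 in Cfb, 2.19 to 2.52 in Cfi, -0.03 to 0.08 in Serping1, 0.13 to 0.20 in Cd55 and 0.20 to 0.48 in Cd46. Among the members, depth limits Cfb and C4b most, with 286 and 643 counts over all libraries.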

Other observations

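Some complement genes differed between single mice more than between genotypes. C1s2 and C1rb, which encode copies of the C1s and C1r proteases, were at 4.01 and 1.41 CPM in FXR-/- library 8 and at 7.97 and 2.15 CPM in FXR-/- library 9. In FXR-/- libraries 10, 11 and 12 they were at 0.633, 0.911 and 0.771 CPM (C1s2) and at 0.202, 0.208 and 0.257 CPM (C1rb), beside 0.598 to 0.903 CPM and 0.241 to 0.662 CPM in wild type. The same libraries 8 and 9 had the lowest Cfi values of their group. Both genes share many 50-base stretches with their larger copies (26.9% of C1s2 with C1s1, 59.2% of C1rb with C1ra), so their levels are uncertain.

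Cd59a, which encodes an inhibitor of the membrane attack complex, ran from 17.2 CPM in wild-type library 5 to 48.0 CPM in wild-type library 3, with the other wild-type libraries at 28.4 to 30.3 CPM and all FXR-/- libraries at 29.7 to 32.0 CPM. Masp2, the gene of a lectin pathway protease, was at 0.547 CPM in wild-type library 4 and at 2.16 to 3.04 CPM in the other 9 libraries, and 52.5% of its 50-base stretches are shared with Tardbp, its neighbour.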
